A study of Mus musculus with 16 samples.

Results

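The genes described here code for 46 proteins that sit in the lysosomal membrane or form the vacuolar H+-ATPase (V-ATPase), the proton pump of that membrane. They were chosen by name, with earlier results of these data known, from 22206 annotated transcript clusters (1 gene model each on the array). Each gene was read from the transcript cluster that carries its symbol, and where a symbol had several, from the cluster with the highest mean signal over the 16 arrays. The set holds 8 membrane proteins such as Lamp1 and Cd68, 6 channels and ion exchanger subunits, 8 transporters, 10 subunits of the membrane sector V0 of the V-ATPase, 12 subunits of its cytosolic sector V1 and 2 accessory subunits.

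All cultures were primary murine fibroblasts of mucopolysaccharidosis type I (MPS I), a lysosomal storage disease in which α-L-iduronidase is lacking and glycosaminoglycans (GAGs) accumulate. They had been grown out of tail skin, and no healthy cells were in the series, so every value below is from diseased cells. For 24 h the cultures received 60 µM or 120 µM genistein (G, an isoflavone), 60 µM or 120 µM kaempferol (K, a flavonol), or an equimolar mixture of G with K at 60 µM or 120 µM in total, that is 30 µM or 60 µM of each. The control cultures received 0.05% or 0.1% DMSO, the solvent. Single flavonoids were compared here with 0.05% DMSO and mixtures with 0.1% DMSO, the pairing that the methods describe. The treatment label of every treated culture, mixtures included, names 0.05% DMSO. Each of the 8 groups had 2 arrays labelled as biological replicates, fewer than the methods describe. Whether these came from separate animals is not stated, so the p-values measure the spread between these cultures, which may be technical.

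Signals were log2 values, so a difference of 1 is a doubling. The median signal of all transcript clusters was 6.54 to 6.63 on the 16 arrays, that of 5222 negative control probe sets was 6.47 to 6.83, and replicate arrays correlated at 0.9948 to 0.9972. Of 12 fibroblast markers, 10, among them Col1a1, Vim and Pdgfrb, exceeded 95% of the negative controls on every array. The exceptions were Pdgfra (9.23 to 11.26) and Lum (5.83 to 6.74), which was read near the negative control median. All 10 keratinocyte markers and 10 of 12 macrophage markers lay at or below the negative control median on every array. So did 5 of 8 osteoclast, 5 of 6 endothelial, 5 of 6 melanocyte, 5 of 6 skeletal muscle and all 5 adipocyte markers. The rest of these lists were Tnfrsf11a (5.98 to 6.98), Itgb3 (6.34 to 7.99), Nfatc1 (8.55 to 9.23), Kdr (5.70 to 6.65), Mlana (7.59 to 9.33) and Ckm (6.85 to 7.48). The summed log2 signal of the 12 fibroblast markers was 163.8 to 169.6 on the treated arrays, against 171.5 to 171.6 on the DMSO arrays, and the part of this difference in the results was not tested. A group was called not well above background for a gene if both its arrays lay at or below the negative control median. By this measure 40 of the 46 genes were above background in all 8 groups, and 6 were above it in none: the transporter gene Abca2 and the V-ATPase subunit genes Atp6v0a4, Atp6v0d2, Atp6v1b1, Atp6v1c2 and Atp6v1g3, which code for isoforms best known from kidney, osteoclasts and other specialised tissues. No fold is given for these 6. The number of arrays limits the precision of the values.

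The V-ATPase splits ATP in its V1 sector and drives protons through its V0 sector, and the low pH it makes is what lysosomal hydrolases need. Channels, exchangers and transporters of the same membrane let out ions and breakdown products such as cystine, sialic acid and cholesterol, and the glycoproteins Lamp1 and Lamp2 coat its inner face. Many of these genes belong to the coordinated lysosomal expression and regulation (CLEAR) network, in which the transcription factors TFEB, TFE3 and MITF bind a palindrome in gene promoters.

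That palindrome, TCACGTGA, was searched for in the RefSeq promoter windows (300 bases across each transcription start, build GRCm38.p6). Entries matched 37 of the 46 genes, with 45 promoters. No entry matched Laptm4b, Tpcn1, Npc1, Atp6v0a2, Atp6v0d2, Atp6v1b2, Atp6v1c1, Atp6v1g1 or Atp6v1h. The palindrome stood in 15.6% of these promoters, those of 7 genes (Mcoln1, Clcn7, Cln3, Slc36a1, Atp6v0d1, Atp6v0e and Atp6v1a), and in 0.974% of all 32851 promoters. It reads the same on both strands and contains the shorter E-box CACGTG, which stood in 20% of the member promoters, adding Lamp1 and Atp6v0b, and in 7.15% of all. With a G before it and a C after it, it stood in the promoter of Cln3 only (0.326% of all promoters), and the M-box TCATGTGA, searched on both strands, in that of Atp6v0c only (0.986% of all). A match is a description of letters and not evidence of binding.

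The stretches that follow show 4 genes that rose with at least 1 flavonoid and 4 that did not pass the test in any condition. The first 4 hold the palindrome. Of the second 4, Slc36a1, Atp6v0d1 and Cln3 hold it too, while Lamp1 holds only the E-box. Atp6v0b, which holds the E-box and rose with the mixtures, is not shown. Capitals mark TCACGTGA and CACGTG. Mcoln1 (chr8:3500439-3500518, plus strand, just before the start), Clcn7 (chr17:25133375-25133404, plus strand, across the start), Atp6v1a (chr16:44139330-44139409, minus strand, before the start) and Atp6v0e (chr17:26676382-26676409, plus strand, across the start) are of the first kind. Lamp1 (chr8:13159081-13159160, plus strand, just before the start), Slc36a1 (chr11:55204306-55204343, plus strand, across the start), Atp6v0d1 (chr8:105566061-105566084, minus strand, across the start) and Cln3 (chr7:126583317-126583396, minus strand, before the start) are of the second.
Mcoln1: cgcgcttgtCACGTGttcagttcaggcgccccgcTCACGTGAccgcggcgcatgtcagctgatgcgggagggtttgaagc
Clcn7: tCACGTGggcaccgatgatagaTCACGTGA
Atp6v1a: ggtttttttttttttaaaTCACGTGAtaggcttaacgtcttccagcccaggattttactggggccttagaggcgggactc
Atp6v0e: ggctttagcgcgccgaTCACGTGAgcct
Lamp1: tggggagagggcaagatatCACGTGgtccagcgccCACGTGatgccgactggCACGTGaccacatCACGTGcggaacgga
Slc36a1: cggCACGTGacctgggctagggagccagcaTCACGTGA
Atp6v0d1: ccaggccctactgcggTCACGTGA
Cln3: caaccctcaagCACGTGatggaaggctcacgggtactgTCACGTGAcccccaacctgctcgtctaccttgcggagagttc
Genes with the palindrome were thus found on both sides of the test.

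More genes of the set rose than fell in every condition. A gene was said to rise or fall when its Benjamini-Hochberg adjusted p, over all 22206 transcript clusters, was below 0.05 in the limma fit. With 60 µM G 12 of the 46 genes rose (26.1%, against 3.84% of all transcript clusters) and none fell (4.48% of all). With 120 µM G 19 rose (41.3%, against 7.94% of all) and 1 fell, Tpcn1 (7.8% of all). With 60 µM K 8 rose (17.4%, against 5.72% of all) and none fell (4.4% of all). With 120 µM K 9 rose (19.6%, against 8.98% of all) and none fell (8% of all). With the 60 µM mixture 15 rose (32.6%, against 9.23% of all) and none fell (8.57% of all), and with the 120 µM mixture 15 rose (32.6%, against 10.1% of all) and 1 fell, Cd63 (9.48% of all). These counts depended on single arrays. Without each array in turn, 6 to 7 genes rose with 60 µM G, fewer by over 1.5 times without any 1 of the 4 arrays compared. With 120 µM G 12 to 18 rose, the 12 without its replicate 2. With 60 µM K 2 to 6 rose, 2 without its replicate 2 and 3 without replicate 1 of 0.05% DMSO, and with 120 µM K 6 to 10. With the 60 µM mixture 7 to 12 rose and with the 120 µM mixture 7 to 15, the lower counts (7 or 8, and 7 to 9) without either mixture array or replicate 2 of 0.1% DMSO. At an unadjusted p below 0.05, the genes past the threshold in either direction numbered 19, 24, 15, 16, 23 and 23 in the same order of conditions. The G and K conditions share their control arrays, as do both mixtures, so the conditions are not independent of one another.

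The genes of the set are brighter than most, and bright clusters passed the test more often. In a fit of the 11103 transcript clusters above the median signal, which held the 40 genes above background, 42.5% of these 40 rose with 60 µM G (11.9% of all clusters fitted), 52.5% with 120 µM G (19.9%), 25% with 60 µM K (15.2%), 32.5% with 120 µM K (22.1%), 50% with the 60 µM mixture (21.7%) and 42.5% with the 120 µM mixture (24%). The share of all clusters that rose was thus higher in this fit in every condition. The median log2 fold change of the 46 genes was 0.28 with 60 µM G, 0.27 with 120 µM G, 0.13 with 60 µM K, 0.19 with 120 µM K, 0.28 with the 60 µM mixture and 0.24 with the 120 µM mixture, where that of all transcript clusters was between -0.04 and 0.01. Over the 40 genes above background it was 0.29, 0.50, 0.16, 0.23, 0.34 and 0.29 in the same order.

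**Figure D1:**
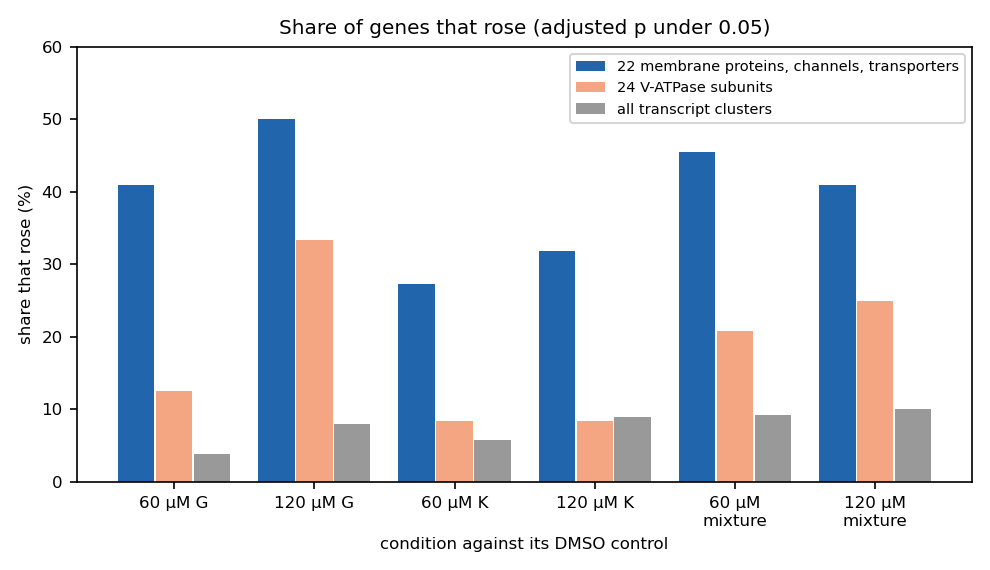
Share of genes (%) that rose against the DMSO control of each condition, for the 22 membrane proteins, channels and transporters, the 24 V-ATPase subunits and all 22206 transcript clusters. The V-ATPase subunits include more genes not above background than the 22 other members. With 120 µM K the V-ATPase bar (8.33%) lies at the level of all transcript clusters (8.98%), while that of the other members is at 31.8%.

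The proton pump was described apart from the rest of the set. Of the 22 membrane proteins, channels and transporters, 9, 11, 6, 7, 10 and 9 rose with 60 µM G, 120 µM G, 60 µM K, 120 µM K, the 60 µM mixture and the 120 µM mixture, the last count including Abca2, whose signal was not above background. Of the 24 V-ATPase subunits, 3, 8, 2, 2, 5 and 6 rose in the same order and none fell. The shares that rose were 40.9%, 50%, 27.3%, 31.8%, 45.5% and 40.9% of the other genes. For the V-ATPase they were 12.5%, 33.3%, 8.33%, 8.33%, 20.8% and 25%. The V-ATPase subunits include Atp6v0a4, Atp6v0d2, Atp6v1b1, Atp6v1c2 and Atp6v1g3, not above background in any group. Among the other genes only Abca2 was not above background. The shares and medians of the pump thus hold more such genes and are not like for like with those of the rest. Of all transcript clusters 3.84%, 7.94%, 5.72%, 8.98%, 9.23% and 10.1% rose. With K the V-ATPase share was thus near or below that of all clusters and rested on 2 genes at each dose. The shares of all clusters here are not matched for brightness. In the fit of brighter clusters 11.9%, 19.9%, 15.2%, 22.1%, 21.7% and 24% of all clusters rose in the same order. The share of the V-ATPase in that fit was not taken separately. The median log2 fold change of the V-ATPase subunits was 0.25 and 0.24 with 60 µM and 120 µM G, 0.07 and 0.05 with 60 µM and 120 µM K, and 0.23 and 0.19 with the 60 µM and 120 µM mixture. The difference between the pump and the other genes was not tested. Over all conditions, 21 of the 40 genes above background rose in at least 1, 2 fell in 1, and 17 passed the test in none. Only Mcoln1, Clcn7, Ctns, Npc1, Slc17a5 and Atp6v0e2 rose in all 6 conditions.

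**Figure D2:**
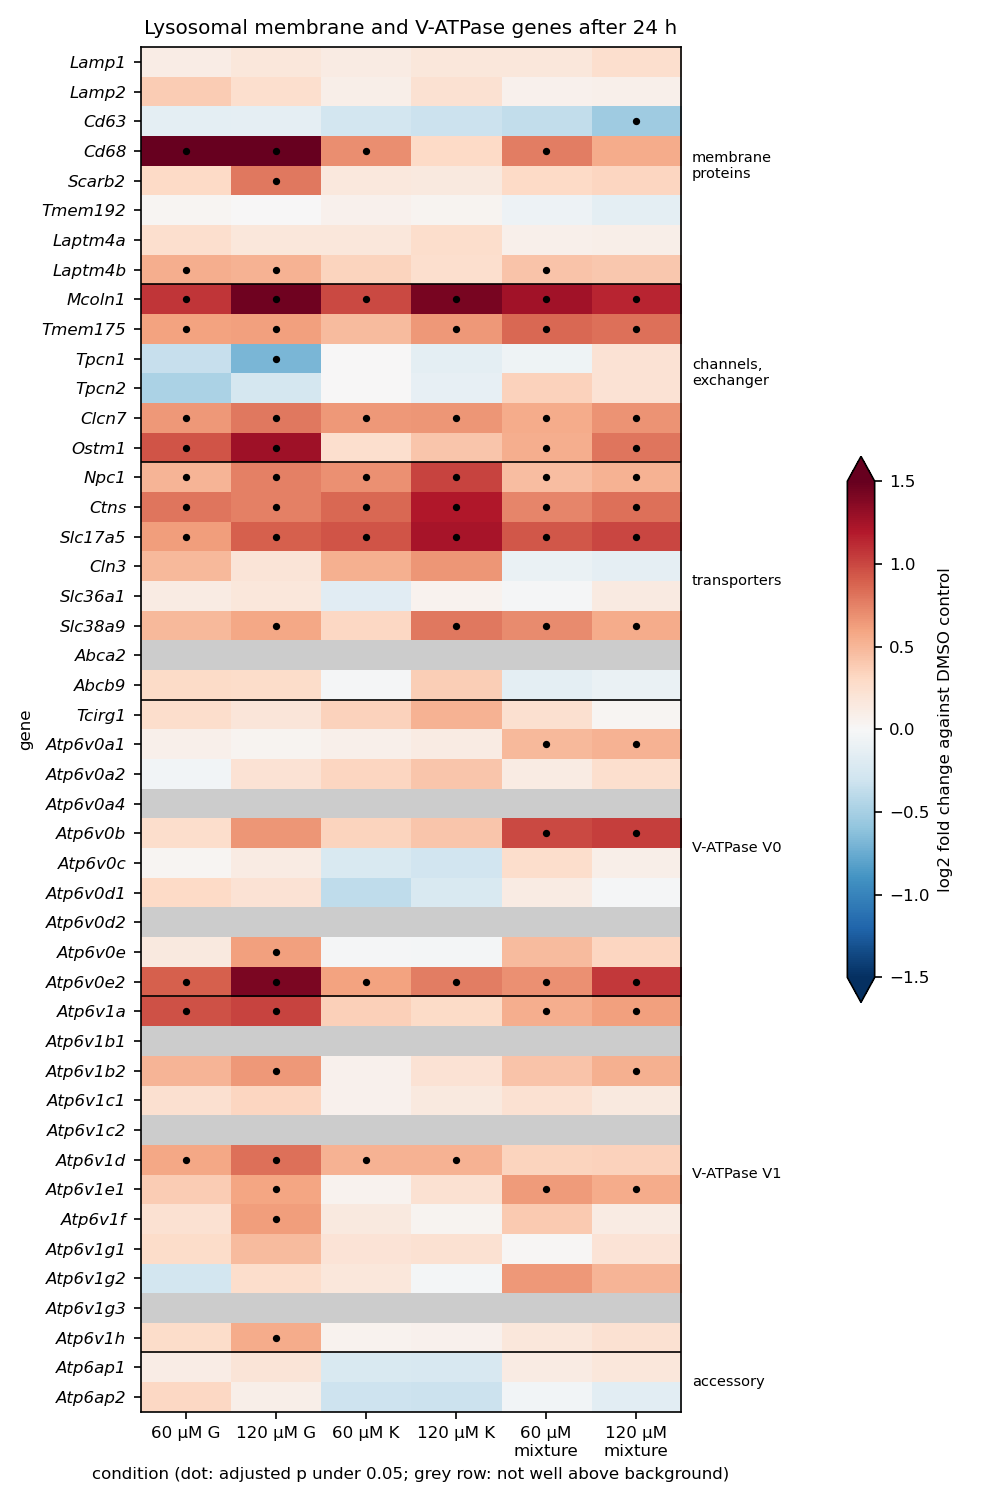
Log2 fold change against the DMSO control for the 46 genes (rows, by role) in the 6 conditions (columns), with the colour scale ending at -1.5 and 1.5, dots for an adjusted p below 0.05 and grey rows for the 6 genes not well above background. The rows of Mcoln1, Clcn7, Ctns, Npc1, Slc17a5 and Atp6v0e2 carry a dot in all 6 columns, and Cd68 with G lies beyond the colour scale at 1.87 and 3.05.

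Among the channels and exchanger subunits, Mcoln1, Clcn7, Ostm1 and Tmem175 rose and the 2-pore channel genes did not. Mcoln1 codes for mucolipin 1 (TRPML1), the calcium release channel of the lysosome. Its log2 signal was 13.64 and 14.03 with 60 µM G and 14.09 and 14.37 with 120 µM G, 13.72 and 13.80 with 60 µM K and 14.24 and 14.15 with 120 µM K, against 12.79 and 12.74 with 0.05% DMSO. With the mixture it was 13.92 and 13.99 at 60 µM and 13.83 and 13.84 at 120 µM, against 12.90 and 12.49 with 0.1% DMSO. All 12 treated arrays lay above all 4 control arrays. The fold changes were 2.10 and 2.75 with 60 µM and 120 µM G (adjusted p = 0.0019 and 4.45e-05), 1.99 and 2.69 with 60 µM and 120 µM K (0.00172 and 4.86e-05), and 2.40 and 2.20 with the 60 µM and 120 µM mixture (0.000193 and 0.000337), each log2 change with a standard error of 0.17. Each of these 6 calls held without any 1 of the arrays compared.

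Clcn7 codes for the chloride-proton exchanger ClC-7, and Ostm1 for the subunit that ClC-7 needs to be stable. Clcn7 was at 12.58 and 12.65 with 60 µM G, 12.66 and 12.86 with 120 µM G, 12.53 and 12.72 with 60 µM K and 12.78 and 12.49 with 120 µM K, against 11.95 and 11.99 with 0.05% DMSO. It was at 12.72 and 12.44 with the 60 µM mixture and 12.73 and 12.68 with the 120 µM mixture, against 12.07 and 11.98 with 0.1% DMSO. Every treated array lay above every control array, and the fold changes lay between 1.47 (60 µM mixture, adjusted p = 0.0203) and 1.73 (120 µM G, adjusted p = 0.00237). The call with 60 µM G did not hold without any 1 of its 4 arrays (adjusted p up to 0.0968), nor did the one with 60 µM K without replicate 2 of 60 µM K or either 0.05% DMSO array (up to 0.116). The call with 120 µM K was lost without its replicate 1 (0.0823), and that with the 60 µM mixture without its replicate 1 or replicate 2 of 0.1% DMSO (up to 0.176).

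Ostm1 rose with G and the mixtures and did not pass the test with K. Its log2 signal was 12.92 and 13.02 with 60 µM G and 13.10 and 13.49 with 120 µM G, 12.33 and 12.23 with 60 µM K and 12.30 and 12.58 with 120 µM K, against 12.08 and 11.97 with 0.05% DMSO. With the mixture it was 12.66 on both arrays at 60 µM and 12.82 and 13.03 at 120 µM, against 12.22 and 12.01 with 0.1% DMSO. No treated array overlapped its own control. The fold changes were 1.93 and 2.41 with 60 µM and 120 µM G (adjusted p = 0.00299 and 9.66e-05), 1.19 and 1.34 with 60 µM and 120 µM K (0.404 and 0.0993), and 1.46 and 1.75 with the 60 µM and 120 µM mixture (0.0323 and 0.00301). The call with the 60 µM mixture was lost without either of its arrays or replicate 2 of 0.1% DMSO (up to 0.186).

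Tmem175 codes for the lysosomal potassium and proton leak channel. It was at 13.02 and 13.07 with 60 µM G, 12.92 and 13.18 with 120 µM G, 12.71 and 13.12 with 60 µM K and 13.13 and 13.06 with 120 µM K, against 12.38 and 12.50 with 0.05% DMSO. It was at 13.15 and 13.31 with the 60 µM mixture and 13.15 and 13.25 with the 120 µM mixture, against 12.46 and 12.29 with 0.1% DMSO. The groups did not overlap in any condition. The rise was 1.81-fold and 1.77-fold with the 60 µM and 120 µM mixture (adjusted p = 0.0021 and 0.00228), 1.52-fold, 1.53-fold and 1.57-fold with 60 µM G, 120 µM G and 120 µM K (0.0328, 0.0169 and 0.0107), and the 1.39-fold difference with 60 µM K did not pass (0.0826). The calls with the mixtures held without any 1 array. Those with G were lost without any 1 of the 4 arrays at 60 µM (up to 0.155) and, at 120 µM, without replicate 2 of G or either 0.05% DMSO array (up to 0.153). That with 120 µM K was lost without replicate 1 of K or of 0.05% DMSO (up to 0.0772).

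Tpcn1 and Tpcn2 code for 2-pore channels, which pass sodium or calcium out of endosomes and lysosomes. Tpcn1 was at 9.17 on both arrays with 120 µM G, against 9.83 and 9.89 with 0.05% DMSO, and fell to 0.621 times the control level (adjusted p = 0.0227). Leaving out any 1 of the 4 arrays ended this call (adjusted p up to 0.108). With 60 µM G the ratio was 0.785 (adjusted p = 0.298), and in the other 4 conditions the log2 fold change lay between -0.15 and 0.22. Tpcn2, read between 8.50 and 9.31 on all arrays, passed the test in no condition.

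The transporters that rose in all 6 conditions carry cystine, sialic acid and cholesterol. Ctns codes for cystinosin, the cystine exporter. Its log2 signal was 14.15 and 14.35 with 60 µM G, 14.10 and 14.31 with 120 µM G, 14.23 and 14.39 with 60 µM K and 14.59 and 14.71 with 120 µM K, against 13.33 and 13.57 with 0.05% DMSO. It was 14.45 and 14.44 with the 60 µM mixture and 14.53 and 14.55 with the 120 µM mixture, against 13.67 and 13.76 with 0.1% DMSO. Every treated array lay above every control array. The fold changes were 1.74 and 1.68 with 60 µM and 120 µM G (adjusted p = 0.00389 and 0.00229), 1.81 and 2.30 with 60 µM and 120 µM K (0.00143 and 5.08e-05), and 1.66 and 1.78 with the 60 µM and 120 µM mixture (0.00298 and 0.00105). All 6 calls held without any 1 array.

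Slc17a5 codes for sialin, which exports sialic acid. It was at 13.91 and 13.94 with 60 µM G, 13.94 and 14.43 with 120 µM G, 14.04 and 14.42 with 60 µM K and 14.47 and 14.59 with 120 µM K, against 13.22 and 13.36 with 0.05% DMSO. It was at 14.20 and 14.29 with the 60 µM mixture and 14.27 and 14.36 with the 120 µM mixture, against 13.23 and 13.39 with 0.1% DMSO. Again no treated array reached down to a control array. The rise was 1.55-fold and 1.86-fold with 60 µM and 120 µM G (adjusted p = 0.0397 and 0.00254), 1.92-fold and 2.36-fold with 60 µM and 120 µM K (0.00304 and 0.000192), and 1.91-fold and 2.00-fold with the 60 µM and 120 µM mixture (0.00216 and 0.00112). The call with 60 µM G was lost without any 1 of its 4 arrays (up to 0.179), and that with 60 µM K without its replicate 2 (0.0502).

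Npc1 codes for the cholesterol exporter whose loss causes Niemann-Pick disease type C. It was at 11.44 on both arrays with 60 µM G, 11.59 and 11.77 with 120 µM G, 11.53 and 11.69 with 60 µM K and 12.01 and 11.86 with 120 µM K, against 10.83 and 11.02 with 0.05% DMSO. It was at 11.70 and 11.59 with the 60 µM mixture and 11.73 and 11.68 with the 120 µM mixture, against 11.26 and 11.12 with 0.1% DMSO. The treated and control arrays were separate throughout. The fold change was highest with 120 µM K (2.02, adjusted p = 0.000152) and lowest with the 60 µM mixture (1.38, adjusted p = 0.0338). The calls with 60 µM G and the 60 µM mixture ended when any 1 of their 4 arrays was left out (up to 0.191 and 0.178), that with 60 µM K without its replicate 2 or replicate 1 of 0.05% DMSO (up to 0.061), and that with the 120 µM mixture without either of its arrays or replicate 2 of 0.1% DMSO (up to 0.109). Against 0.1% DMSO in place of 0.05% DMSO, the calls with 60 µM G and 60 µM K were also lost (adjusted p = 0.319 and 0.0572).

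Slc38a9, an arginine-sensing amino acid transporter that acts on mTORC1, rose in 4 of the 6 conditions. With 120 µM K it was at 14.05 and 13.75 and with 120 µM G at 13.55 and 13.83, against 13.15 and 13.07 with 0.05% DMSO (1.73-fold and 1.49-fold, adjusted p = 0.00278 and 0.0215). With the mixture it was at 13.62 and 13.61 at 60 µM and 13.51 and 13.42 at 120 µM, against 13.07 and 12.75 with 0.1% DMSO (1.63-fold and 1.47-fold, adjusted p = 0.00666 and 0.0223). At 60 µM, G cells had 13.64 and 13.55 and K cells 13.46 and 13.37, both above 0.05% DMSO but short of the threshold (adjusted p = 0.0765 and 0.274). Only the call with 120 µM K held without any 1 array. That with 120 µM G was lost without its replicate 2 or either 0.05% DMSO array (up to 0.183), that with the 60 µM mixture without replicate 2 of 0.1% DMSO (0.0718), and that with the 120 µM mixture without either of its arrays or that same control array (up to 0.183). Against 0.05% DMSO the adjusted p was 0.0500 with the 60 µM mixture and 0.157 with the 120 µM mixture.

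Of the other transporters, Cln3, Slc36a1 and Abcb9 passed the test in no condition. Cln3, whose loss causes juvenile Batten disease, was read near background, at 6.44 to 7.69 on all arrays. Its largest fold was 1.59 with 120 µM K (adjusted p = 0.0856), and the mixtures were at 0.933 and 0.911 times their control. Slc36a1, a proton-coupled amino acid transporter, was at 11.03 to 11.61 and Abcb9, a peptide transporter, at 7.33 to 8.19. Abca2, counted above as rising with the 120 µM mixture, read 5.38 and 5.59 there, against 5.13 and 4.16 with 0.1% DMSO, all below the negative control median, and this call (adjusted p = 0.041) was lost without either 120 µM mixture array or replicate 2 of 0.1% DMSO (up to 0.413).

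**Figure D3:**
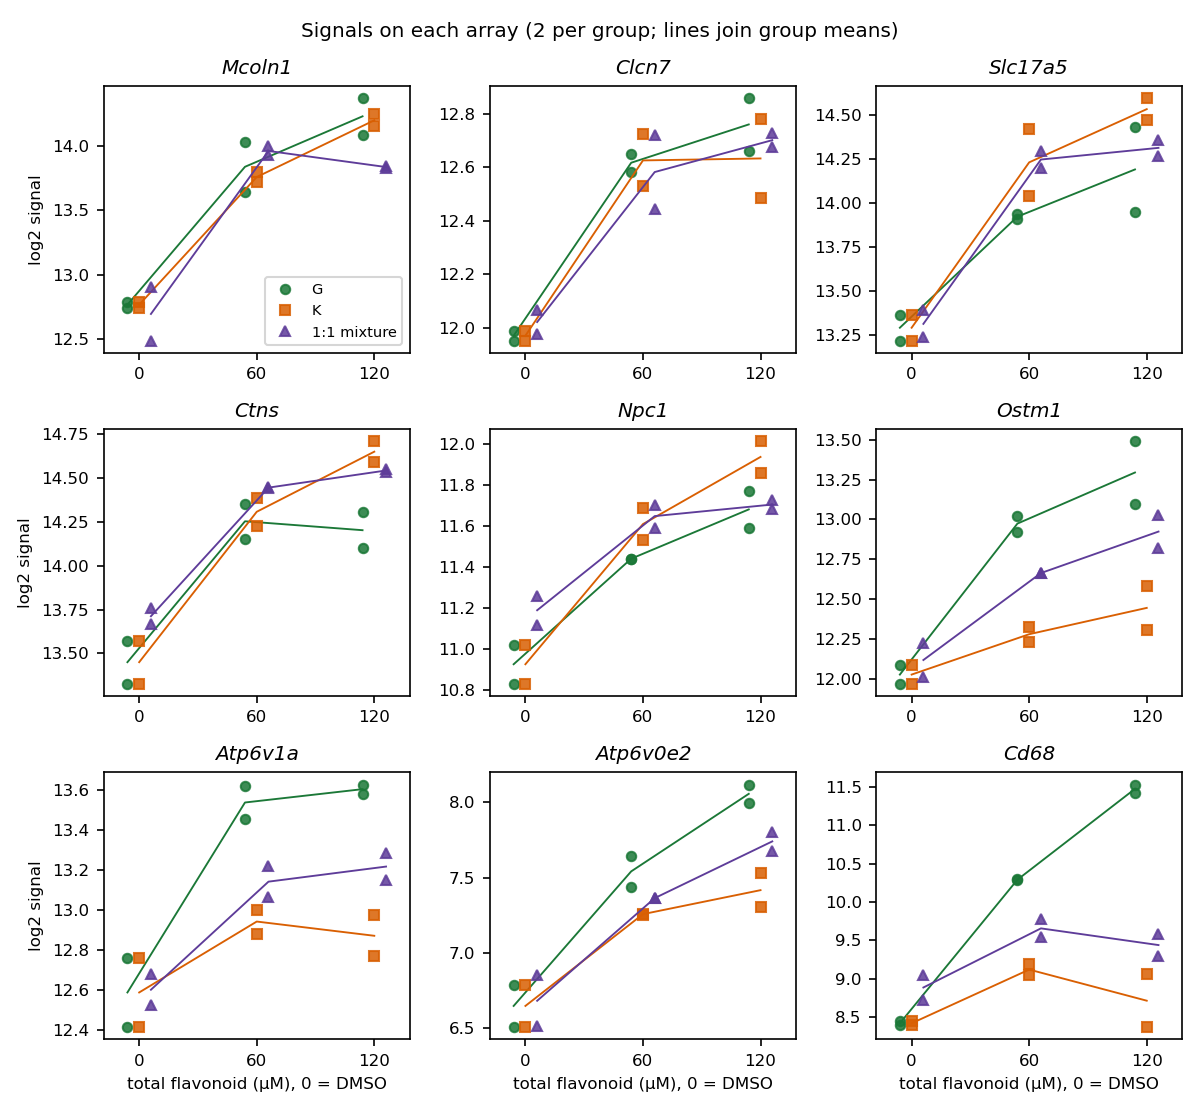
Log2 signal on each array (y axis) against the total flavonoid concentration in µM (x axis, 0 for the DMSO control) for 9 genes, with green circles for G, orange squares for K, purple triangles for the 1:1 mixture and lines through the means of the 2 arrays (symbols set slightly apart sideways). G and K share the 0.05% DMSO arrays and the mixture has the 0.1% DMSO arrays. Cd68 with G climbs to 11.42 and 11.53 at 120 µM, while K and the mixture reach 9.78 at most.

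Among the membrane proteins, Cd68 had the largest change of the whole set and Lamp1 and Lamp2, the main glycoproteins of the lysosomal membrane, did not pass the test. Cd68 codes for macrosialin, a LAMP family glycoprotein that is abundant in macrophages. Its log2 signal was 10.29 on both arrays with 60 µM G and 11.42 and 11.53 with 120 µM G, 9.19 and 9.05 with 60 µM K and 8.37 and 9.06 with 120 µM K, against 8.45 and 8.40 with 0.05% DMSO. With the mixture it was 9.54 and 9.78 at 60 µM and 9.30 and 9.58 at 120 µM, against 8.73 and 9.05 with 0.1% DMSO. G arrays lay above all others, K arrays at 120 µM overlapped the control, and the mixtures lay just above theirs. The rise was 3.65-fold and 8.28-fold with 60 µM and 120 µM G (adjusted p = 0.000118 and 4.65e-07), 1.62-fold with 60 µM K (0.0406) and 1.70-fold with the 60 µM mixture (0.017). With 120 µM K and the 120 µM mixture the folds were 1.23 and 1.47 (0.381 and 0.0695).

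Both calls of Cd68 with G held without any 1 array. The call with 60 µM K was lost without any 1 of its 4 arrays (adjusted p up to 0.211) and against 0.1% DMSO (0.494), and that with the 60 µM mixture without its replicate 2 or replicate 1 of 0.1% DMSO (up to 0.127). None of the 12 macrophage markers exceeded 95% of the negative controls on every array, and the defining markers Ptprc, Adgre1, Csf1r, Itgam and Aif1 lay at or below the negative control median on every array. The summed log2 signal of the 12 macrophage markers was 60.26 to 60.51 with 60 µM G and 57.89 to 61.14 with 120 µM G, against 60.4 to 61.61 with 0.05% DMSO. The other 2 of the 12, Lyz2 at 6.33 to 8.26 and Mrc1 at 5.22 to 6.87 over all arrays, were not at or below that median on every array. The ranges of the sum overlapped between G and control arrays at both doses, most of these markers were read at background, and the part of macrophage RNA in the Cd68 result was not tested.

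Scarb2, also called LIMP-2, carries β-glucocerebrosidase to the lysosome, and Laptm4b is a small membrane protein of late endosomes and lysosomes. Scarb2 was at 11.56 and 11.62 with 120 µM G, against 10.73 and 10.86 with 0.05% DMSO, a rise of 1.73-fold (adjusted p = 0.00153) that held without any 1 array. In the other 5 conditions its folds were 1.11 to 1.25 and none passed. Laptm4b was at 11.69 and 11.78 with 60 µM G and 11.67 and 11.76 with 120 µM G, against 11.28 and 11.11 with 0.05% DMSO, and at 11.65 and 11.88 with the 60 µM mixture, against 11.37 and 11.32 with 0.1% DMSO. These groups did not overlap, and the rises of 1.46-fold, 1.43-fold and 1.34-fold passed (adjusted p = 0.0243, 0.0165 and 0.0441). The calls with 60 µM G and the 60 µM mixture were lost without any 1 of their arrays (up to 0.169 and 0.273), and that with 120 µM G without its replicate 2 or replicate 2 of 0.05% DMSO (up to 0.132). Both G calls were also lost against 0.1% DMSO (0.092 and 0.0693).

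Cd63, a tetraspanin of late endosomes and exosomes, was the only membrane protein gene that fell. It was at 16.65 and 16.55 with the 120 µM mixture, against 17.11 and 17.14 with 0.1% DMSO, or 0.694 times the control level (adjusted p = 0.0215), a call lost without any 1 of the 4 arrays (up to 0.131) and against 0.05% DMSO (0.0636). Its log2 fold change was below 0 in every condition. Lamp1 was at 15.76 to 15.94 on the treated arrays, against 15.61 to 15.73 on the control arrays. No treated array overlapped a control array, yet the folds were only 1.08 to 1.19 and no adjusted p was below 0.191. Lamp2 was brighter, at 17.02 to 17.46 on treated arrays, and came nearest to the threshold with 60 µM G (log2 fold change 0.38, adjusted p = 0.0851). Laptm4a, at 16.12 to 16.45, and Tmem192, at 10.43 to 10.90, passed in no condition.

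In the V0 sector, Atp6v0e2 rose in all 6 conditions, Atp6v0a1 and Atp6v0b with the mixtures and Atp6v0e with 120 µM G. Atp6v0e2 codes for an isoform of the small e subunit. Its log2 signal was 7.44 and 7.64 with 60 µM G, 7.99 and 8.12 with 120 µM G, 7.26 and 7.25 with 60 µM K and 7.30 and 7.53 with 120 µM K, against 6.51 and 6.79 with 0.05% DMSO. It was 7.36 on both arrays with the 60 µM mixture and 7.80 and 7.68 with the 120 µM mixture, against 6.51 and 6.85 with 0.1% DMSO. Every treated array lay above every control array, but 1 array of each control lay at or below the negative control median, so the control level was at the edge of detection. The rise was 1.86-fold and 2.65-fold with 60 µM and 120 µM G (adjusted p = 0.00367 and 3.34e-05), 1.53-fold and 1.70-fold with 60 µM and 120 µM K (0.0243 and 0.00366), and 1.60-fold and 2.08-fold with the 60 µM and 120 µM mixture (0.00865 and 0.000339). The call with 60 µM K was lost without either of its arrays or replicate 1 of 0.05% DMSO (up to 0.185), and that with the 60 µM mixture without either of its arrays or replicate 1 of 0.1% DMSO (up to 0.0753).

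Atp6v0e, the ubiquitous e subunit, was at 12.51 and 12.81 with 120 µM G, against 11.91 and 12.17 with 0.05% DMSO, a rise of 1.54-fold (adjusted p = 0.0246) that was lost without replicate 2 of 120 µM G or replicate 1 of 0.05% DMSO (up to 0.197). With K its folds were 0.988 and 0.983 at 60 µM and 120 µM and the arrays overlapped those of the control. Atp6v0b codes for the c″ subunit of the proton-carrying ring. It was at 9.33 and 9.28 with the 60 µM mixture and 9.31 and 9.39 with the 120 µM mixture, against 8.62 and 8.00 with 0.1% DMSO, or 1.99-fold and 2.05-fold higher (adjusted p = 0.0186 and 0.0132). Atp6v0a1, the a1 isoform of the large membrane subunit, was at 15.13 on both arrays with the 60 µM mixture and 15.05 and 15.26 with the 120 µM mixture, against 14.77 and 14.52 with 0.1% DMSO, with log2 fold changes of 0.49 and 0.52 (adjusted p = 0.0373 and 0.0257). The mixture calls of these 2 genes depended on the control. Against 0.05% DMSO the adjusted p was 0.285 and 0.218 for Atp6v0b and 0.207 and 0.144 for Atp6v0a1 with the 60 µM and 120 µM mixture. Both calls of each gene were also lost without replicate 2 of 0.1% DMSO, the lower control array for both, and without replicate 2 of the mixture, and those of Atp6v0b and the 60 µM call of Atp6v0a1 without replicate 1 of the mixture too (adjusted p up to 0.174 for Atp6v0b and 0.231 for Atp6v0a1).

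The remaining V0 genes passed against DMSO in no condition. Atp6v0c, the c subunit of the ring, was the brightest V-ATPase gene, at 17.12 to 17.61, with folds of 0.821 to 1.20. Atp6v0d1, the d1 subunit, was at 14.07 to 14.85, Tcirg1, the a3 isoform known from osteoclasts, at 10.71 to 11.49, and Atp6v0a2 at 10.26 to 10.86. The nearest of these to the threshold was Atp6v0a2 with 120 µM K (1.33-fold, adjusted p = 0.0539).

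In the V1 sector, 6 of 12 genes rose with 120 µM G, and Atp6v1d alone rose with K. Atp6v1a codes for the catalytic A subunit that splits ATP. Its log2 signal was 13.62 and 13.45 with 60 µM G, 13.58 and 13.63 with 120 µM G, 12.88 and 13.00 with 60 µM K and 12.77 and 12.97 with 120 µM K, against 12.76 and 12.41 with 0.05% DMSO. It was 13.22 and 13.06 with the 60 µM mixture and 13.28 and 13.15 with the 120 µM mixture, against 12.68 and 12.52 with 0.1% DMSO. The G arrays lay highest and the mixture arrays between those of G and K. The rise was 1.93-fold and 2.02-fold with 60 µM and 120 µM G (adjusted p = 0.00203 and 0.000373) and 1.46-fold and 1.53-fold with the 60 µM and 120 µM mixture (0.0257 and 0.0115), while the folds of 1.28 and 1.22 with 60 µM and 120 µM K did not pass (0.184 and 0.249). The calls with G held without any 1 array. Those with the mixture were lost without replicate 1 of the mixture or replicate 2 of 0.1% DMSO and, at 60 µM, also without replicate 2 of the mixture (up to 0.16 at 60 µM and 0.0899 at 120 µM).

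Atp6v1d codes for the D subunit of the rotating stalk. It was at 12.79 and 12.83 with 60 µM G, 13.12 and 12.99 with 120 µM G, 12.69 and 12.80 with 60 µM K and 12.78 and 12.73 with 120 µM K, against 12.11 and 12.35 with 0.05% DMSO. It was at 12.95 and 12.88 with the 60 µM mixture and 12.82 and 13.04 with the 120 µM mixture, against 12.62 and 12.55 with 0.1% DMSO. All 12 treated arrays were above all 4 control arrays, and the 2 controls themselves stood apart by 0.36 (0.1% minus 0.05% DMSO, 95% interval 0.06 to 0.65, adjusted p = 0.46). The log2 fold change was 0.58 and 0.82 with 60 µM and 120 µM G (adjusted p = 0.0197 and 0.000913) and 0.52 and 0.53 with 60 µM and 120 µM K (0.0288 and 0.0167). With the mixtures the log2 fold changes of 0.33 and 0.34 did not pass (0.118 and 0.1). Only the call with 120 µM G held without any 1 array. Those with 60 µM G, 60 µM K and 120 µM K were lost without either treated array or replicate 1 of 0.05% DMSO (up to 0.147, 0.206 and 0.146), and against 0.1% DMSO (0.39, 0.501 and 0.455).

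Atp6v1e1, the E1 subunit of the peripheral stalk, was at 13.46 and 13.58 with 120 µM G, against 12.91 and 12.94 with 0.05% DMSO (1.51-fold, adjusted p = 0.00531). It was at 13.24 and 13.37 with the 60 µM mixture and 13.27 and 13.17 with the 120 µM mixture, against 12.71 and 12.61 with 0.1% DMSO (1.56-fold and 1.47-fold, adjusted p = 0.00341 and 0.00742). Its mixture calls did not pass against 0.05% DMSO (0.0715 and 0.152). The call with 120 µM G was lost without its replicate 2 (0.0545) and that with the 120 µM mixture without its replicate 1 or replicate 2 of 0.1% DMSO (up to 0.0678).

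Atp6v1b2, the widely expressed B2 subunit, rose 1.58-fold with 120 µM G and 1.45-fold with the 120 µM mixture (adjusted p = 0.0113 and 0.0296). It was at 13.59 and 13.65 with 120 µM G, against 12.78 and 13.15 with 0.05% DMSO, and at 13.35 and 13.41 with the 120 µM mixture, against 12.99 and 12.69 with 0.1% DMSO. The call with G was lost without its replicate 2 or replicate 1 of 0.05% DMSO (up to 0.132). That with the mixture was lost without either of its arrays or replicate 2 of 0.1% DMSO (up to 0.216) and against 0.05% DMSO (0.105). Atp6v1f and Atp6v1h, the F subunit and the regulatory H subunit, rose with 120 µM G only. Atp6v1f was at 12.52 and 12.69 with 120 µM G, against 11.96 and 12.00 with 0.05% DMSO (1.54-fold, adjusted p = 0.00605, lost without replicate 2 of 120 µM G at 0.0648). Atp6v1h was at 13.94 and 13.79 with 120 µM G, against 13.25 and 13.37 with 0.05% DMSO (1.47-fold, adjusted p = 0.0132, lost without replicate 1 of 120 µM G or of 0.05% DMSO, up to 0.1).

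The other V1 genes above background, Atp6v1c1 (12.90 to 13.32), Atp6v1g1 (11.35 to 12.05) and Atp6v1g2 (6.75 to 7.93), passed in no condition. Neither did the accessory subunit genes against DMSO. Atp6ap1 was at 14.24 to 14.77. Atp6ap2, the prorenin receptor, which helps V-ATPase assembly, was at 14.56 and 14.57 with 60 µM G and 14.27 and 14.41 with 120 µM G, 13.89 and 13.99 with 60 µM K and 13.99 and 13.88 with 120 µM K, against 14.31 and 14.20 with 0.05% DMSO. The G and K arrays thus lay on opposite sides of the control at 60 µM, at folds of 1.24 and 0.805 (adjusted p = 0.154 and 0.149).

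The direct comparison of K with G asks whether flavonoids that differ in where the hydroxyphenyl ring is attached and in a hydroxyl group gave different levels. Every gene of the set that passed was lower with K. At 60 µM 5 of 46 genes were lower with K (10.9%, against 3.39% of all transcript clusters) and none was higher (4.78% of all). At 120 µM 8 were lower (17.4%, against 4.57% of all) and none was higher (5.21% of all). At an unadjusted p below 0.05, 13 and 16 genes were past the threshold in either direction at 60 µM and 120 µM.

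Cd68 differed most, by -1.17 on the log2 scale at 60 µM (K minus G, 95% interval -1.60 to -0.74, adjusted p = 0.00284) and -2.76 at 120 µM (-3.19 to -2.32, 1.8e-06), or 0.445 and 0.148 times the G level. Its K arrays did not overlap its G arrays at either dose, and both calls held without any 1 array. Ostm1 differed by -0.69 at 60 µM (-1.04 to -0.35, 0.0185) and -0.85 at 120 µM (-1.20 to -0.50, 0.00385), and Atp6v1a by -0.60 (-0.92 to -0.27, 0.0295) and -0.73 (-1.06 to -0.40, 0.00696). These 2 genes had no overlap between K and G arrays either. Their calls at 60 µM were lost without any 1 of the 4 arrays (up to 0.115 for Ostm1 and 0.17 for Atp6v1a), and those at 120 µM without replicate 2 of G for Ostm1 (0.0541) and replicate 1 of K for Atp6v1a (0.0703).

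At 60 µM only, Atp6v0d1 and Atp6ap2 also passed. Atp6v0d1 was at 14.07 and 14.09 with 60 µM K, against 14.85 and 14.67 with 60 µM G, a difference of -0.68 (-0.99 to -0.37, adjusted p = 0.0111), and Atp6ap2, with the values given above, differed by -0.62 (-0.89 to -0.35, 0.00822). Neither passed against DMSO in either compound. The call of Atp6v0d1 was lost without replicate 1 of G or either K array (up to 0.0767), and that of Atp6ap2 without replicate 2 of G or replicate 1 of K (up to 0.0779). At 120 µM the differences were -0.45 for Atp6v0d1 and -0.40 for Atp6ap2, and did not pass.

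At 120 µM only, Scarb2, Atp6v0e, Atp6v0e2, Atp6v1f and Atp6v1h passed, all genes that had risen with 120 µM G. Scarb2 was at 10.78 and 11.11 with 120 µM K, against 11.56 and 11.62 with 120 µM G (-0.64, adjusted p = 0.0105), and Atp6v0e at 11.92 and 12.11, against 12.51 and 12.81 (-0.64, 0.0293). Atp6v0e2 was at 7.30 and 7.53 with 120 µM K, against 7.99 and 8.12 with 120 µM G (-0.64, 0.0192). Atp6v1f was at 12.04 and 12.01 with K, against 12.52 and 12.69 with G (-0.58, 0.0152), and Atp6v1h at 13.32 and 13.43, against 13.94 and 13.79 (-0.49, 0.0377). No K array reached a G array in these 5 genes. Their calls were each lost without at least 2 of the 4 arrays (replicate 2 of G or replicate 1 of K for all 5, with replicate 1 of G too for Atp6v0e2 and Atp6v1h, and replicate 2 of K too for Atp6v0e, Atp6v1f and Atp6v1h), with adjusted p up to 0.115 for Scarb2, 0.204 for Atp6v0e, 0.146 for Atp6v0e2, 0.114 for Atp6v1f and 0.216 for Atp6v1h.

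The genes that rose in all 6 conditions, Atp6v0e2 aside, did not pass between K and G. For Mcoln1 K minus G was -0.08 at 60 µM (95% interval -0.44 to 0.29) and -0.03 at 120 µM (-0.40 to 0.33), and for Clcn7 0.01 (-0.32 to 0.33) and -0.13 (-0.45 to 0.20). For the transporters the estimates were above 0, namely 0.05 (-0.25 to 0.36) and 0.45 (0.14 to 0.76) for Ctns, 0.31 (-0.07 to 0.68) and 0.34 (-0.03 to 0.72) for Slc17a5, and 0.17 (-0.13 to 0.47) and 0.26 (-0.04 to 0.55) for Npc1. The interval of Ctns at 120 µM lay above 0, but its adjusted p was 0.067. The intervals of Mcoln1 and Clcn7 include 0 at both doses, and a difference between K and G that lies within them could not be seen with 2 arrays a group.

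**Figure D4:**
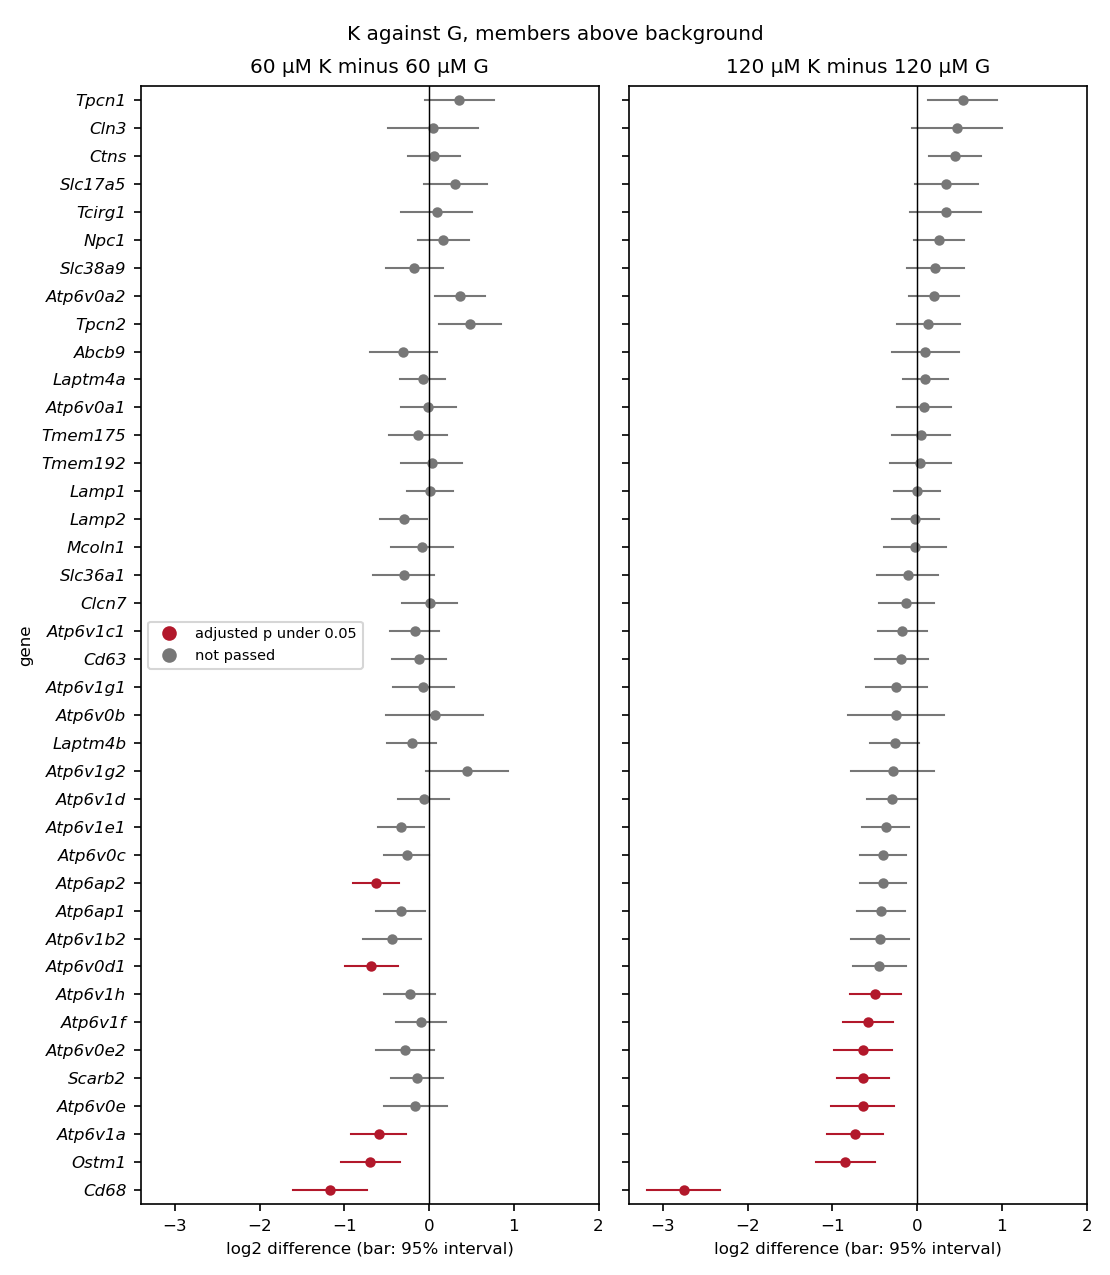
Difference in log2 signal between K and G at 60 µM (left) and 120 µM (right) for the 40 genes above background, with 95% intervals and red for an adjusted p below 0.05. All red points lie to the left of 0, that is lower with K, and Cd68 lies furthest out at -1.17 and -2.76.

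Between doses, Cd68 with G was the only gene of the set that passed. Its difference between 120 µM and 60 µM G was 1.18 (95% interval 0.75 to 1.61, adjusted p = 0.00483), a further 2.27-fold that held without any 1 array. Over all transcript clusters 1.57% were higher and 1.98% lower with 120 µM than with 60 µM G. With K no gene passed between doses (0.0405% of all clusters higher, 0.23% lower, and 4 genes of the set at an unadjusted p below 0.05 in either direction), and with the mixture none either (0% of all in each direction, 1 gene of the set at an unadjusted p below 0.05). For Mcoln1 the higher dose minus the lower was 0.39 with G (0.03 to 0.76), 0.44 with K (0.07 to 0.80) and -0.12 with the mixture (-0.49 to 0.24), none passing the adjusted threshold.

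At equal total concentration, the 120 µM mixture differed from 120 µM G in 5 genes, 4 lower (8.70% of the set, against 2.8% of all transcript clusters) and 1 higher (4.53% of all). Lower with the mixture were Cd68 by -2.03 (95% interval -2.46 to -1.60, adjusted p = 3.89e-05), Atp6v0e by -0.69 (-1.06 to -0.32, 0.0258), Atp6v1f by -0.62 (-0.91 to -0.32, 0.0129) and Scarb2 by -0.54 (-0.84 to -0.23, 0.0343). Tpcn1 was higher, at 9.77 and 10.18 with the 120 µM mixture, against 9.17 on both arrays with 120 µM G (0.80, 0.40 to 1.21, 0.0179). The mixture and G arrays did not overlap for any of the 5. The call of Cd68 held without any 1 array. Those of the other 4 were lost without replicate 2 of 120 µM G, and Scarb2 also without any other 1 of the arrays (up to 0.243), Atp6v0e without replicate 1 of the mixture (up to 0.251), Atp6v1f without either mixture array (up to 0.123) and Tpcn1 without replicate 1 of G or replicate 2 of the mixture (up to 0.2).

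Between the 60 µM mixture and 60 µM G no gene of the set passed (4.18% of all clusters higher, 3.17% lower, and 9 genes at an unadjusted p below 0.05), with Cd68 at -0.63 (adjusted p = 0.0738). Against K none passed at 60 µM (0.036% of all higher, 0.054% lower, 5 genes at an unadjusted p below 0.05) or at 120 µM (0.432% higher, 0.252% lower, 7 genes). The effect of the 120 µM mixture was also set against the sum of the log2 effects of 60 µM G and 60 µM K, the amounts it contains. No gene passed (0.018% of all higher, 0.0225% lower), and 8 were at an unadjusted p below 0.05 in either direction. The median of this difference over the 46 genes was -0.23, against -0.02 over all clusters. It was -2.01 for Cd68 (95% interval -2.88 to -1.15), -0.92 for Mcoln1 (-1.65 to -0.19) and -0.83 for Ctns (-1.45 to -0.21). Of the 40 genes above background, 12 had a difference above 0, up to 0.68. These intervals are not adjusted for the number of genes, and the same 0.05% DMSO arrays enter the sum with both flavonoids. The intervals here are wider than for a pair of groups, with a median half-width of 0.68 against 0.34.

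The solvent controls differed in no gene of the set (0.1% minus 0.05% DMSO, 0.0045% of all clusters higher and 0% lower), with 6 genes at an unadjusted p below 0.05. Yet the choice of control moved calls near the threshold. With 0.1% DMSO as the control of the single flavonoids, 8 of their 49 calls were lost, and with 0.05% DMSO as the control of the mixtures, 11 of 31. Of all 99 calls of genes of the set, over the conditions and the direct comparisons, 41 held without each array in turn and 58 were lost without at least 1 array.

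Among 41 other genes of the lysosomal membrane, 5, 11, 6, 11, 9 and 11 rose with 60 µM G, 120 µM G, 60 µM K, 120 µM K, the 60 µM mixture and the 120 µM mixture, and 2, 2, 4, 4, 3 and 3 fell. The shares that rose were 12.2%, 26.8%, 14.6%, 26.8%, 22% and 26.8%, each above that of all transcript clusters given for the set. These were not matched for brightness, and more of all clusters rose in the fit of brighter clusters. The shares that fell were 4.88%, 4.88%, 9.76%, 9.76%, 7.32% and 7.32%, close to or below that of all clusters except with 60 µM K (4.4% of all). Sort1, a sorting receptor that brings proteins to the lysosome, rose in all 6 conditions, 1.78-fold and 1.96-fold with 60 µM and 120 µM G, 1.97-fold and 2.13-fold with 60 µM and 120 µM K and 3.02-fold and 3.57-fold with the 60 µM and 120 µM mixture (adjusted p from 0.00773 down to 5.14e-06, the call with 60 µM G lost without replicate 2 of 0.05% DMSO at 0.0957). Mfsd12, a cysteine importer of lysosomes and melanosomes, rose with K and with the mixtures, 2.04-fold, 1.95-fold, 2.75-fold and 1.95-fold in the order of dose. Atp13a2, a lysosomal polyamine exporter, was at 6.13 to 6.47 on the control arrays, not well above background, and rose at least 2.11-fold with the 120 µM mixture (adjusted p = 0.000225), where it read 7.87 and 7.34. This bound sets the mean of the treated arrays against the lowest signal that is above background.

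Tmem63a, a mechanosensitive ion channel, fell. It was at 13.33 and 13.76 with 60 µM K and 13.26 and 13.54 with 120 µM K, against 14.67 and 14.76 with 0.05% DMSO, and at 13.72 and 13.80 with the 60 µM mixture and 13.43 on both arrays with the 120 µM mixture, against 14.69 and 14.90 with 0.1% DMSO. These were 0.444, 0.402, 0.489 and 0.388 times the control level (adjusted p from 0.000539 down to 4.23e-05), with no overlap. With 60 µM G it was at 0.686 times the control level (adjusted p = 0.0499, lost without any 1 of the 4 arrays, up to 0.215).

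Of 20 genes of the Ragulator, Rag GTPase and folliculin group, which recruits mTORC1 to the lysosome, 2, 4, 2, 2, 2 and 4 rose in the same order of conditions and 1, Lamtor3 with 120 µM K, fell (0.718 times the control, adjusted p = 0.0375, named after its value was seen because it was the only one). These are 10%, 20%, 10%, 10%, 10% and 20% that rose, which is near the share of all clusters with 120 µM K (8.98%) and the 60 µM mixture (9.23%) and rests on 2 to 4 genes in each condition. Borcs8, a subunit of the BORC complex that positions lysosomes, rose in all 6, from 1.73-fold with 60 µM G to 2.31-fold with the 120 µM mixture, the first of these calls being lost without replicate 1 of 0.05% DMSO (adjusted p = 0.0723). Lamtor2, a Ragulator subunit, rose with the 60 µM and 120 µM mixture, 1.75-fold and 1.86-fold (0.00775 and 0.0033), the 60 µM call being lost without replicate 2 of the mixture or of 0.1% DMSO (up to 0.0911). Mtor, the kinase of mTORC1, rose with 120 µM G, both doses of K and the 120 µM mixture (1.65-fold, 1.87-fold, 1.78-fold and 1.63-fold), and each of these calls was lost without at least 2 of the arrays compared, replicate 2 of the control among them (adjusted p up to 0.221, 0.102, 0.111 and 0.126). Rragd, a Rag GTPase, rose with 120 µM G only (1.83-fold, adjusted p = 0.029, lost without either G array or replicate 1 of 0.05% DMSO, up to 0.201, and against 0.1% DMSO, 0.226).

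Of 15 genes that help assemble or regulate the V-ATPase, 2, 3, 4, 4, 5 and 5 rose and none fell. These are 13.3%, 20%, 26.7%, 26.7%, 33.3% and 33.3%, each above the share of all clusters that rose, on 2 to 5 genes in each condition. That share was not matched for brightness. Rogdi, a partner of the assembly factors called rabconnectins, rose in all 6 conditions, 1.96-fold and 3.29-fold with 60 µM and 120 µM G, 1.91-fold and 2.26-fold with 60 µM and 120 µM K and 2.81-fold and 2.63-fold with the 60 µM and 120 µM mixture. Its calls with 60 µM G (adjusted p = 0.0373) and 60 µM K (0.0382) rested on most of the arrays compared and were lost, the G call without replicate 1 of G or either control array and the K call without any 1 array (up to 0.257 for G and 0.187 for K), and that with 120 µM K without its replicate 2 or replicate 2 of 0.05% DMSO (up to 0.0519). Against 0.1% DMSO the call with 60 µM G was lost too (0.0517). Dmxl2, a rabconnectin, rose 1.64-fold and 2.44-fold with 60 µM and 120 µM K and 1.86-fold and 2.24-fold with the 60 µM and 120 µM mixture, and was 1.85-fold higher with 120 µM K than with 120 µM G (adjusted p = 0.0043). Its call with 60 µM K was lost without replicate 2 of K or of 0.05% DMSO (up to 0.158). Tbc1d24 rose with K and the mixtures (1.88-fold to 2.32-fold), both K calls being lost without replicate 2 of 0.05% DMSO (0.0532 and 0.0642). Tmem199, an assembly factor known from yeast as Vma12, rose in every condition but 60 µM G (1.82-fold to 2.09-fold), where its fold was 0.999. Its calls with 60 µM K and the 60 µM mixture were lost without replicate 1 of the treatment and 1 control array, replicate 1 of 0.05% DMSO or replicate 2 of 0.1% DMSO, and that with 60 µM K without its replicate 2 too (up to 0.0758 and 0.0944).

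The MiT transcription factor genes moved apart. Mitf was at 11.31 on both arrays with 60 µM K and 11.68 and 11.37 with 120 µM K, against 10.21 and 10.38 with 0.05% DMSO, and at 11.38 and 11.54 with the 60 µM mixture and 11.61 and 11.65 with the 120 µM mixture, against 10.17 and 10.11 with 0.1% DMSO. It rose 2.02-fold, 2.35-fold, 2.50-fold and 2.81-fold in these conditions (adjusted p = 0.00111, 0.000122, 9.29e-05 and 2.56e-05), and with G it did not pass (1.13-fold and 0.901-fold at 60 µM and 120 µM). K cells were above G cells by 0.83 at 60 µM and 1.38 at 120 µM on the log2 scale (adjusted p = 0.00704 and 0.000101), the first call being lost without replicate 1 of G or of K (up to 0.0613). Tfec rose with K and the mixtures (1.74-fold, 1.47-fold, 1.89-fold and 1.92-fold) and fell to 0.468 times the control with 120 µM G, where it read 6.81 and 6.58, against 7.63 and 7.95 with 0.05% DMSO (adjusted p = 0.000535). The negative control medians of these G arrays were 6.74 and 6.71. The values of Tfec with 120 µM G, also in the comparison with K, were thus at the edge of detection. Its calls with 60 µM and 120 µM K were lost without replicate 2 of K or replicate 1 of 0.05% DMSO (up to 0.0909 and 0.288), and that with 120 µM K also against 0.1% DMSO (0.065). K cells were above G cells in Tfec by 1.32 at 60 µM and 1.65 at 120 µM (adjusted p = 0.000392 and 3.39e-05), and both calls held without any 1 array.

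Tfe3, at 10.33 to 10.98 on all arrays, passed in no condition, with folds of 0.817 to 0.984. Tfeb lay at the negative control level, not well above background in any treated group, and has no fold here. With G no MiT factor transcript passed the test for a rise, and changes of Tfeb below background could not be read. With K and the mixtures Mitf and Tfec were higher. The paper measured nuclear translocation of TFEB protein in HeLa cells, which transcript levels do not show. It also reported array and quantitative PCR levels of the MiT factor genes in MPS I fibroblasts at the higher dose. There Mitf rose with K and the mixture, as it did here. The paper also gave Tfe3 as raised with K and the mixture, Mitf as lowered with G and Tfec as unchanged. Here Tfe3 passed in no condition and Mitf did not pass with G. Tfec passed here at that dose with G, K and the mixture. The cause of these differences was not tested. Whether any of these factors had a part in the changes of the set was not tested.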

How the data were processed

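RNA of primary murine MPS I fibroblasts was hybridised to Clariom S mouse arrays, 16 in all and 2 for each of 8 groups. The authors normalized the arrays and summarised the probes to log2 signals per transcript cluster, and per the labels used Affymetrix Expression Console with RMA and the Transcriptome Analysis Console; their versions were not found in these sources. The deposited workbook of log2 signals was analysed, and the series' own value table differed from it by at most 5e-05. Fold changes and p-values of the authors' own comparisons that the files also hold were not used.

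Group means were fitted with limma 3.58.1 (R 4.3.3) in 1 model of the 16 arrays, with 8 residual degrees of freedom and 5.81 prior ones, as contrasts of each treatment with its control, K with G, higher with lower dose, mixture with single flavonoid and 0.1% with 0.05% DMSO. P-values were Benjamini-Hochberg adjusted over 22206 transcript clusters, and a gene was called at an adjusted p below 0.05. Intervals are 95% intervals. In simulated data for 60 µM G against 0.05% DMSO over 22206 clusters, 200 clusters were changed. Of 50 each, 2, 8, 26 and 47 were recovered at 1.3-fold, 1.5-fold, 2-fold and 4-fold. Of 91 calls in the simulation, 8 were of unchanged clusters. In the real comparison 1848 clusters passed, so the adjusted threshold was stricter in the simulation than in the data. The recovery rates therefore do not carry over, and the part of small changes missed in the data is not known from them.

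Per-array values are given for genes that passed in at least 4 of the 6 conditions or in a direct comparison and for the largest changes of each role, and of each pathway list up to 4 genes with the largest changes and the MiT factors. Values of other genes that passed are given too. The members and lists were chosen with earlier results of these data known. Alternatives were other controls, normalizations, priors, filters, transcript clusters and samples, a replicate block and each array left out in turn.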

Additional observations from a re-analysis of the deposited data

Results flagged for a closer look

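Differences between K and G at equal concentration passed the test in 13 cases, all lower with K and each a measured difference between the flavonoids rather than between their separate comparisons with DMSO. On the log2 scale (K minus G, limma with Benjamini-Hochberg adjustment) the differences at 60 µM were -1.17 for Cd68, -0.69 for Ostm1, -0.68 for Atp6v0d1, -0.60 for Atp6v1a and -0.62 for Atp6ap2. At 120 µM they were -2.76 for Cd68, -0.64 for Scarb2, -0.85 for Ostm1, -0.64 for Atp6v0e, -0.64 for Atp6v0e2, -0.73 for Atp6v1a, -0.58 for Atp6v1f and -0.49 for Atp6v1h. In each case both K arrays lay below both G arrays, which is nearly given for genes that passed on these same arrays and adds no support. Only the Cd68 differences held without any 1 of the arrays compared. Genes of the V-ATPase, which are 24 of the 46 genes, made up 8 of these 13 cases, in 7 genes. The membrane protein and channel genes made up the other 5. Cd68, Ostm1 and Atp6v1a each count at both doses. Lower with K at 60 µM and 120 µM were 12.5% and 20.8% of the V-ATPase genes. Of the other 22 genes 9.09% and 13.6% were lower, and of all transcript clusters 3.39% and 4.57%. Genes not above background are counted in these shares. The difference between the pump and the other genes was not tested.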

How the results depend on the processing

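No call turned round under any alternative. Of 99 calls, all held with a replicate block, with arrays centred on their median, with the series' value table and with a trended, robust prior, 96 with quantile normalization repeated and 75 of 80 with both DMSO groups as control. In a fit of only the groups compared, which leaves 2 residual degrees of freedom, 52 held. The counts that moved by over 1.5 times are these. With only the groups compared, 5 genes rose with 60 µM G, 12 with 120 µM G, 7 with the 60 µM mixture and 9 with the 120 µM mixture, 0 fell with the 120 µM mixture, and 2, 1 and 1 passed for K against G at 60 µM and 120 µM and for the mixture against G at 120 µM. With the trended, robust prior, 14 rose with 120 µM K, 3, 3, 2 and 2 fell with 60 µM K, 120 µM K, the 60 µM mixture and the 120 µM mixture, and in the direct comparisons 2 passed between the doses of G, 10 and 15 for K against G at 60 µM and 120 µM, 4 and 10 for the mixture against G, 1 and 2 for the mixture against K, and 1 for the 120 µM mixture against the sum. In the fit of brighter clusters, which tests fewer clusters, 1, 2, 2 and 1 fell with 60 µM G, 60 µM K, 120 µM K and the 60 µM mixture, and 4 passed between the doses of G, 9 and 16 for K against G, 3 for the 60 µM mixture against G and 1 against the sum. With folds above 1.3 or below 0.7 in place of a test, 14 rose with 120 µM K and 1, 2, 2, 1, 1 and 2 fell in the 6 conditions in their usual order. With both DMSO groups as control 1 fell with 60 µM K, against 0.05% DMSO 0 fell with the 120 µM mixture, and with quantile normalization 1 passed for the 60 µM mixture against G. The cause of these changes was not tested, other than the smaller numbers of samples or clusters named.

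Without each array in turn, 6 to 7 genes rose with 60 µM G, 12 to 18 with 120 µM G, 2 to 6 with 60 µM K, 6 to 10 with 120 µM K, 7 to 12 with the 60 µM mixture and 7 to 15 with the 120 µM mixture. The genes that fell were 0 to 0, 0 to 0, 0 to 1, 0 to 0, 0 to 1 and 0 to 1 in the same order. In the direct comparisons 1 to 2 passed for K against G at 60 µM and 2 to 6 at 120 µM, 1 to 3 for the mixture against G at 120 µM, 0 to 1 for the mixture against G at 60 µM and against K at 120 µM, and 1 to 1 between the doses of G.

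Replicate numbers did not pair the samples: deviations of same-numbered arrays correlated at -0.136 to 0.142 over 28 pairs of groups (median 0.014). With the replicate number as a block 12, 19, 8, 9, 15 and 16 genes rose, and 9 in place of 8 passed for K against G at 120 µM.

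The brighter of 2 transcript clusters of Atp6v0c was used, and the other gave the same signs against DMSO in the 6 conditions, with no call. With 2 arrays a group, the median half-width of a 95% interval was 0.34 on the log2 scale, and Cln3, Atp6v1g2 and Atp6v0e2 were read close to background on some arrays.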
